A study of Homo sapiens with 12 samples.

Results

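The genes described are 9 nuclear genes for enzymes that burn fatty acids, read in MDA-MB-231 cells under 4 media. They were chosen by name, as the rows of the deposited gene table with the symbols CPT1A, CPT2, ACADVL, ACADM, HADHA, HADHB, ACAA2, ETFA and ETFB, 9 of 63187 genes in that table. The set was put together under the name mitochondrial and peroxisomal fatty acid oxidation, but all 9 encode mitochondrial proteins and 0 are peroxisomal, so peroxisomal enzymes are described separately below. Genes were tested where 3 or more of the 12 libraries reached a normalized count of 10, which 7 of the 9 did and CPT2 and ETFB did not.

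MDA-MB-231 is an established human breast adenocarcinoma line of mesenchymal type, and the cells had been grown in 10% serum. They were then held for 36 h in 1 of 4 media that all contained 3% serum. Deficient medium had neither glucose nor glutamine, glucose-only medium had 25 mM glucose and no glutamine, glutamine-only medium had 4 mM glutamine and no glucose, and full medium had both. There were 3 libraries of ribosome-depleted, stranded total RNA for each medium, lettered A, B and C, 12 in all. All 12 carry the same batch label and come from 1 line, and whether the 3 libraries of a medium were separate cultures is not stated, so the p-values measure the spread between libraries, which may be technical. Serum, which itself carries lipids, was present in all 4 media.

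Long-chain fatty acids enter the mitochondrial matrix as carnitine esters. CPT1A on the outer membrane makes the ester, in the step that malonyl-CoA inhibits and that limits the pathway in many tissues, and CPT2 on the inner membrane turns it back into acyl-CoA. Each turn of beta-oxidation then runs through 4 reactions. Acyl-CoA dehydrogenases take the first electrons (ACADVL for very long and long chains, ACADM for medium chains), the trifunctional protein built from HADHA and HADHB carries out the remaining reactions on long chains, and the thiolase ACAA2 makes the last cut on shorter chains. The dehydrogenases hand their electrons to the flavoprotein made of ETFA and ETFB. Cells deprived of glucose are known to draw on this pathway in tissues such as liver, heart and muscle.

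The stretches of 250 bases before the start sites of CPT1A, ACADVL and ACAA2, the 3 tested genes whose means spanned the widest range over the media, and before that of HADHB, which lies close to HADHA, are shown because the results below turn on these genes. They are RefSeq sequences of build GRCh38.p14, written 5′ to 3′ on the strand of the gene, with any match to a searched motif in capitals. CPT1A lies at chr11:68844278-68844527 on the minus strand, the first of the 2 ACADVL windows at chr17:7216875-7217124 on the plus strand, ACAA2 at chr18:49813534-49813783 on the minus strand and HADHB at chr2:26244689-26244938 on the plus strand.
CPT1A: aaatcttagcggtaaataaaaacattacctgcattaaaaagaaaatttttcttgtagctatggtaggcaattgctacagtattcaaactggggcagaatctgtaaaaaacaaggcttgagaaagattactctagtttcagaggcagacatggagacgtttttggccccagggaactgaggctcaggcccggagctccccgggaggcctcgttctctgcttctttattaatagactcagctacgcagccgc
ACADVL: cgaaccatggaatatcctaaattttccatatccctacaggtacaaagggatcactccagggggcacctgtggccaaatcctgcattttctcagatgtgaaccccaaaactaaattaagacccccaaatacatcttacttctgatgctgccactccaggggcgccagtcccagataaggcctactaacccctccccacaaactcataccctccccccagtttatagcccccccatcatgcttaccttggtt
ACAA2: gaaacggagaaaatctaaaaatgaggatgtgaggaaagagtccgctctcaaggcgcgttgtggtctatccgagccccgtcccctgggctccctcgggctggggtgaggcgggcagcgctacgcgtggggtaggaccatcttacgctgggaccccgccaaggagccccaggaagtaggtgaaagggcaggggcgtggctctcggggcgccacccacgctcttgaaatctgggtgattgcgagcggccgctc
HADHB: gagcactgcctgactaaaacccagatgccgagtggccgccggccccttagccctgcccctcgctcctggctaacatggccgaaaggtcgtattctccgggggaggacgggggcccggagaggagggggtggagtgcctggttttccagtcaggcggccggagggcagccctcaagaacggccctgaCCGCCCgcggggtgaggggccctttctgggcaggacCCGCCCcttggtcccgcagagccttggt

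Motifs were searched on both strands as exact letters: the GC box GGGCGG, the CCAAT box CCAAT, the nuclear receptor core AGGTCA, its direct repeat with 1 base between (DR1, the form that PPAR and RXR bind), the ERR site TCAAGGTCA, which contains that core, the NRF1 core GCGCATGCG, the E-box CACGTG, the ATF4-CEBP site TGATGCAA and the ETS core CCGGAAGT. None of these letters occurred in the CPT1A, ACAA2 and first ACADVL windows, which says nothing of whether the factors act on these genes. HADHB had the GC box at 23 to 28 and at 59 to 64 bases before its start, both on the opposite strand. HADHA and HADHB start 306 bases apart and point away from each other, and the farther of these boxes also lies 243 to 248 bases before the HADHA start. GC boxes were found as well in the windows of CPT2, ACADM, ETFA and ETFB and in the second ACADVL window. The ETS core was found in CPT2 and the CCAAT box in ETFA and in the second ETFB window. Of 35116 promoters of the same length, 42.6% held the GC box, 32.0% the CCAAT box and 3.42% the ETS core. The nuclear receptor core was found in 12.1% of promoters, the direct repeat in 0.0171%, the ERR site in 0.319%, the NRF1 core in 1.64%, the E-box in 6.34% and the ATF4-CEBP site in 0.772%, and no window of the 9 genes held any of them.

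The libraries held 875033 to 1473587 reads assigned to genes, which is shallow for these enzymes: a single read was worth a normalized count of 0.661 to 1.30, and the best-read of the 9 genes had 52 to 184 reads per library. Of the markers of the line, the mesenchymal filament gene VIM stood at 641 to 1050. The low markers of the line, namely the hormone receptor genes ESR1 and PGR and the epithelial genes CDH1 and ESRP1, reached at most 3.61. Of 24 markers of other cells, 22 stayed under 10 in every library, the exceptions being PECAM1 at up to 19.7 and KDR at up to 15.7. ADIPOQ, PLIN1 and LEP, which mark fat cells, reached at most 0.902, 0.917 and 1.93. Protein-coding genes took 47.2 ± 4.35% of reads in deficient, 44.5 ± 2.50% in glucose-only, 51.2 ± 3.31% in glutamine-only and 55.4 ± 3.93% in full medium (SD, n = 3 each), so the scaling between media bears on small changes. In bulk RNA, fewer cells of a type and less RNA per cell cannot be told apart.

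**Figure D1:**
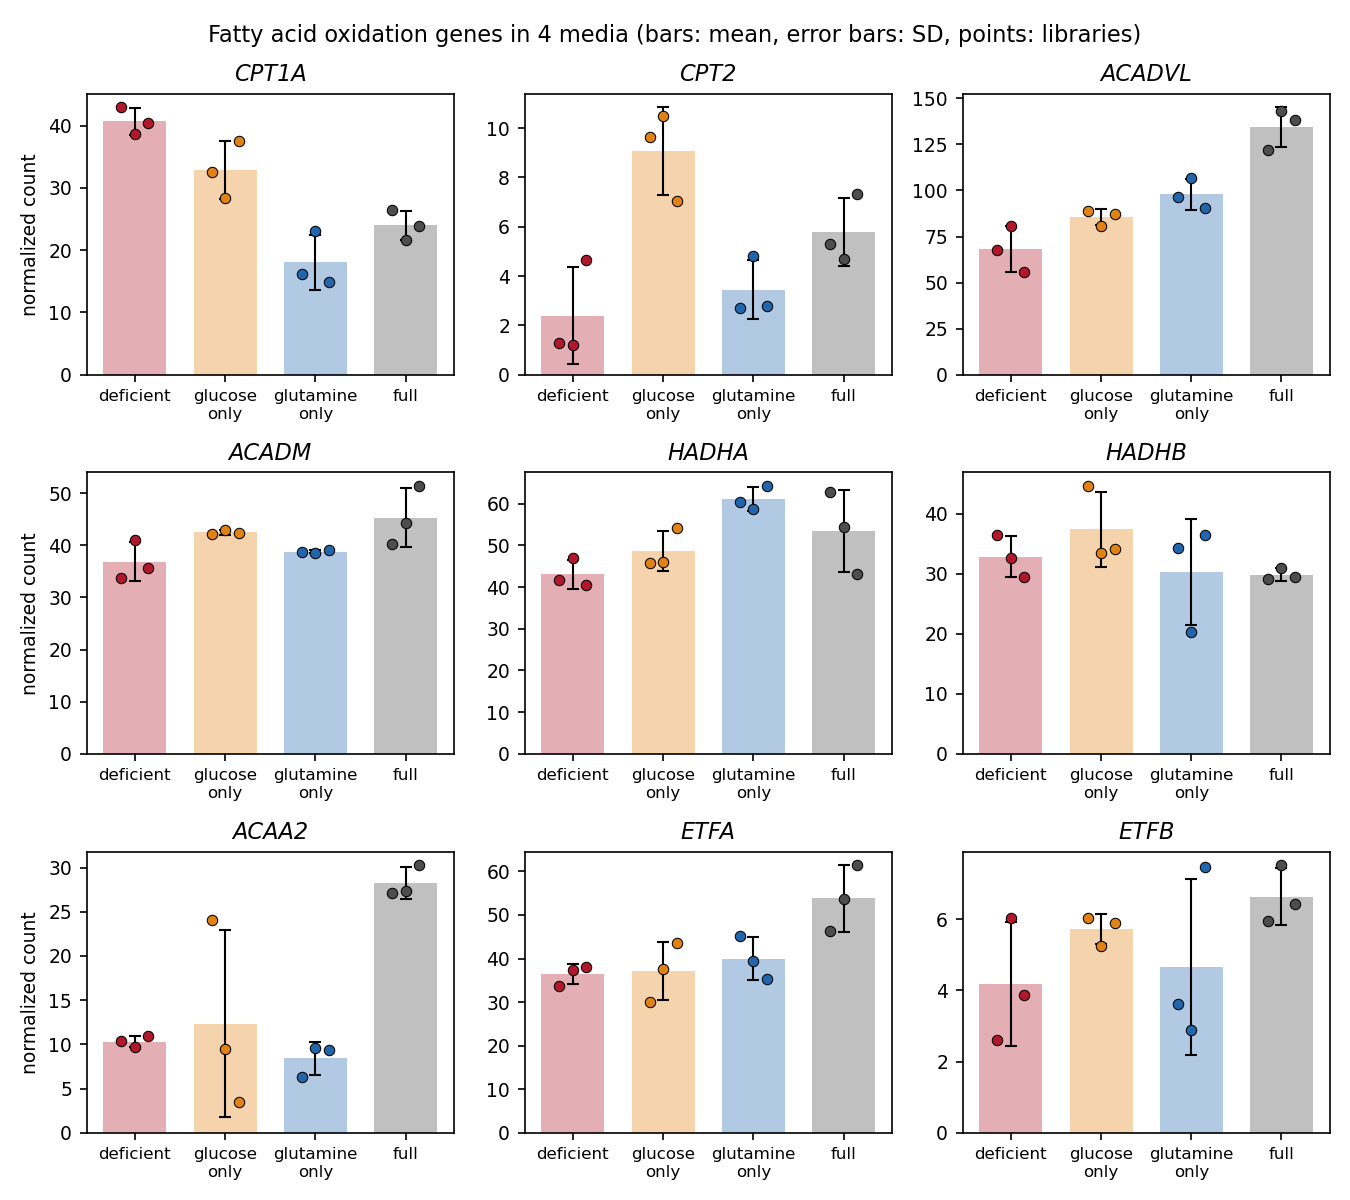
Normalized counts (reads divided by a size factor per library, vertical axes from 0) of the 9 genes in deficient, glucose-only, glutamine-only and full medium, with points for the 3 libraries, bars for their mean and error bars for the SD. CPT1A is highest in deficient medium at 40.7 ± 2.17, whereas ACADVL and ACAA2 are highest in full medium, at 134 ± 11 and 28.2 ± 1.78.

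Removal of both nutrients moved genes of the pathway in opposite directions. CPT1A, which makes the acylcarnitine, rose 1.67-fold in deficient against full medium, while the long-chain dehydrogenase ACADVL, the thiolase ACAA2 and the electron carrier subunit ETFA fell. ACADM, HADHA and HADHB did not pass the test. With 1 gene higher and 3 lower, 4 of the 7 tested genes were called, against 51.8% of all 9270 tested genes (26.3% higher and 25.5% lower), so the share called was close to that of genes at large. The median log2 change of the 7 was -0.29, beside 0.01 over all tested genes. With equal library totals 0 rose and 5 fell, with a median of -0.69 beside -0.37 over all tested genes. The share of all tested genes called on that scale is not given here. Counts with equal totals, here and for the lists below, therefore have no background share beside them. A gene was called when its adjusted p in limma, by the method of Benjamini and Hochberg over all tested genes, was under 0.05, and each log2 change is that of log2(normalized count + 1).

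At the entry step, CPT1A had normalized counts of 43.0, 38.6 and 40.4 in deficient medium, 32.5, 28.3 and 37.6 in glucose-only, 16.2, 23.1 and 14.9 in glutamine-only, and 26.4, 21.6 and 23.9 in full medium. The deficient and glucose-only libraries all lay above all of the full and glutamine-only ones, and those of glutamine-only overlapped those of full medium. The change in deficient against full medium was 0.74 ± 0.21 (log2 change ± SE, adjusted p = 0.00422 in limma). It rested on the scaling: with equal library totals it was 0.35 (adjusted p = 0.204), on a scale where the median of all tested genes moved to -0.37. Glucose-only against full medium gave 0.43 ± 0.21 (adjusted p = 0.142), and glutamine-only against full medium gave -0.41 ± 0.21 (adjusted p = 0.175), so neither single withdrawal passed. Set directly against each other, glucose-only cells had more CPT1A than glutamine-only cells, by 0.84 ± 0.21 (adjusted p = 0.00677, and 0.0644 with DESeq2). Of the 6 comparisons between media the widest change was in glutamine-only against deficient medium, where CPT1A fell by 1.15 ± 0.21 (adjusted p = 7.38e-05), a call kept in every alternative run. For glucose-only against deficient medium the value was -0.31 ± 0.21 (adjusted p = 0.246, 95% interval -0.74 to 0.12).

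CPT2, the inner-membrane partner of CPT1A, was too low to test. Its normalized counts were 1.30, 1.21 and 4.66 in deficient, 9.64, 10.5 and 7.05 in glucose-only, 2.71, 4.82 and 2.80 in glutamine-only, and 5.29, 4.70 and 7.34 in full medium. The 3 glucose-only libraries were above every deficient and glutamine-only library. These values come from 8, 24, 11 and 21 reads summed over the 3 libraries of each medium in that order, so CPT2 was hardly resolved at this depth. In the fit with no filter, glucose-only exceeded deficient medium by 1.70 ± 0.47 (adjusted p = 0.00666 over all genes with a read), and the other 5 comparisons between media did not pass. CPT1B, the muscle form of CPT1, had at most 2.33, and SLC25A20, which carries acylcarnitine across the inner membrane, had at most 9.17, so neither was tested.

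ACADVL opens the spiral for very long and long chains, and its level fell in stages with the nutrients withdrawn. Normalized counts were 67.7, 80.9 and 55.9 in deficient, 89.1, 80.7 and 87.0 in glucose-only, 96.5, 107 and 90.4 in glutamine-only, and 122, 143 and 138 in full medium. Every library of full medium was above every library of the other 3 media, and the glucose-only and deficient libraries overlapped. Against full medium ACADVL fell by 0.98 ± 0.13 on the log2 scale in deficient (adjusted p = 3.93e-07), by 0.64 ± 0.13 in glucose-only (adjusted p = 0.000616) and by 0.45 ± 0.13 in glutamine-only medium (adjusted p = 0.0131). The first and second of these calls were kept in every alternative. The third was lost without the filter (adjusted p = 0.058), with DESeq2 (0.0668), without glutamine-only library C (0.0647) and without full library B (0.0639). Relative to deficient medium ACADVL was higher in glucose-only, by 0.34 ± 0.13 (adjusted p = 0.0376), and in glutamine-only medium, by 0.53 ± 0.13 (adjusted p = 0.00193). The glucose-only call was among the least firm here, with 0.21 (adjusted p = 0.242) once deficient library C was left out. Glucose-only and glutamine-only medium, neighbours in the order of levels, differed by -0.19 ± 0.13 (adjusted p = 0.388).

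Medium-chain dehydrogenase ACADM moved least of all 9 genes. It had 33.8, 41.1 and 35.7 in deficient, 42.2, 43.0 and 42.3 in glucose-only, 38.8, 38.5 and 39.1 in glutamine-only, and 40.3, 44.2 and 51.4 in full medium. The means of the media spanned 0.29 on the log2 scale, and no comparison passed. The interval for deficient against full medium, -0.62 to 0.05 around -0.29 (adjusted p = 0.142), still admits a decrease of the size seen in ACADVL under glutamine-only medium. That comparison passed with equal totals, at -0.68 (adjusted p = 0.00318), and with equal protein-coding totals, at -0.45 (adjusted p = 0.0199). ACADM shares 157 exon bases, 3.3% of its own, with RABGGTB on the same strand in GENCODE release 29, so a few reads may be shared between them.

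The trifunctional protein is an assembly of HADHA, which holds the hydratase and the dehydrogenase, and HADHB, the thiolase. HADHA had 41.7, 47.1 and 40.4 in deficient, 45.8, 46.1 and 54.1 in glucose-only, 60.4, 58.7 and 64.3 in glutamine-only, and 62.8, 54.5 and 43.1 in full medium. The glutamine-only libraries lay above all of the deficient and glucose-only ones, while the full libraries were spread from 43.1 to 62.8. Glutamine-only exceeded deficient medium by 0.50 ± 0.16 (adjusted p = 0.0118), a call lost with DESeq2 (0.0626), and the other 5 comparisons between media did not pass. Deficient against full medium gave -0.29 ± 0.16 (adjusted p = 0.119). It passed with equal totals (-0.69, adjusted p = 0.00125), with equal protein-coding totals (-0.46, adjusted p = 0.0155) and without full library C (-0.44, adjusted p = 0.0339).

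HADHB, which starts 306 bases from HADHA, passed in no comparison. Its normalized counts were 36.4, 32.6 and 29.5 in deficient, 44.6, 33.5 and 34.1 in glucose-only, 34.3, 20.2 and 36.4 in glutamine-only, and 29.1, 31.0 and 29.4 in full medium. The glucose-only libraries lay above those of full medium, all other pairs of media overlapped, and the lowest value was in glutamine-only library B. Where HADHA was higher in glutamine-only than in deficient medium, HADHB gave -0.15 ± 0.21 (adjusted p = 0.592). Against full medium, HADHB gave 0.13 in deficient, 0.31 in glucose-only and -0.02 in glutamine-only medium, each with an SE of 0.21.

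A plain ratio of the subunits within a library does not depend on the scaling between libraries. For the tests and log2 differences below, 1 was added to both normalized counts first, so these are not wholly free of the scaling. HADHA over HADHB was 1.14, 1.44 and 1.37 in deficient, 1.03, 1.37 and 1.59 in glucose-only, 1.76, 2.90 and 1.77 in glutamine-only, and 2.16, 1.76 and 1.47 in full medium. The 3 glutamine-only ratios were above every deficient and glucose-only ratio. An exact permutation test of the log2 ratio over all 369600 arrangements of the 12 libraries into 4 media gave p = 0.0632, or 0.126 after adjustment over both ratios tested, so the ratio was not shown to differ between media. With 3 libraries against 3 the smallest two-sided exact p is 0.1, which deficient against full medium (-0.42) and glutamine-only against deficient medium (0.65) both reached.

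**Figure D2:**
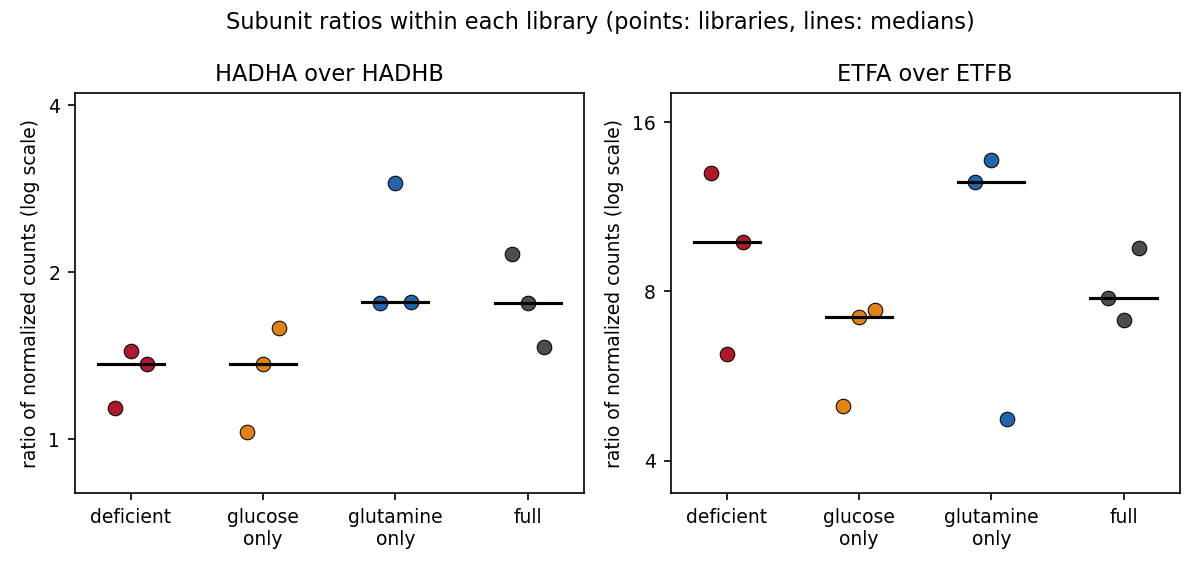
Ratio of HADHA to HADHB and of ETFA to ETFB normalized counts (log axes) in each library by medium, with lines at the medians. For HADHA over HADHB the 3 glutamine-only points lie at 1.76 to 2.90, above the 3 deficient points at 1.14 to 1.44, whereas the ETFA over ETFB points overlap between all media.

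ACAA2, the thiolase of medium and short chains, fell furthest of the 7 tested genes. It had normalized counts of 10.4, 9.66 and 10.9 in deficient, 24.1, 9.43 and 3.53 in glucose-only, 6.31, 9.63 and 9.32 in glutamine-only, and 27.1, 27.3 and 30.3 in full medium. All 9 libraries that lacked a nutrient were below all 3 of full medium, and the glucose-only libraries scattered far more than any other group. ACAA2 fell against full medium by 1.37 ± 0.40 in deficient (adjusted p = 0.00494), by 1.46 ± 0.40 in glucose-only (adjusted p = 0.00757) and by 1.65 ± 0.40 in glutamine-only medium (adjusted p = 0.00262), on the log2 scale. Without glucose-only library C, where the gene had 3 reads, the glucose-only value was -0.85 (adjusted p = 0.0928). The deficient and glutamine-only calls were kept in every alternative. Among the 3 media short of a nutrient no difference passed: the log2 change was -0.10 for glucose-only and -0.28 for glutamine-only against deficient medium, and 0.19 for glucose-only against glutamine-only medium, each ± 0.40. ACAA2 shares 385 exon bases, 7.6% of its own, with AC090227.1 on the same strand in GENCODE release 29, so reads there cannot be assigned with certainty.

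The electron carrier is a dimer of ETFA and ETFB. ETFA had 33.8, 37.4 and 38.0 in deficient, 30.1, 37.7 and 43.5 in glucose-only, 45.1, 39.5 and 35.4 in glutamine-only, and 46.3, 53.6 and 61.5 in full medium. Each library of full medium was above all of the others. ETFA fell by 0.54 ± 0.18 in deficient (adjusted p = 0.0111) and by 0.53 ± 0.18 in glucose-only medium (adjusted p = 0.0281), and glutamine-only medium gave -0.42 ± 0.18 (adjusted p = 0.0896). The deficient call was lost with DESeq2 (0.0543) and without full library C (0.0695). In glucose-only medium the call was lost in more alternatives, with adjusted p up to 0.169 with DESeq2, and also without glucose-only library A (0.148) or B (0.0525) or full library B (0.0713) or C (0.141).

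ETFB stayed under 10 in every library and was not tested. It had 2.60, 6.04 and 3.88 in deficient, 6.02, 5.24 and 5.88 in glucose-only, 3.61, 2.89 and 7.46 in glutamine-only, and 5.95, 7.52 and 6.42 in full medium, from 12, 15, 15 and 24 reads in all. The media overlapped throughout, and in the fit with no filter no comparison passed. The ratio of ETFA to ETFB was 13, 6.20 and 9.80 in deficient, 5.00, 7.20 and 7.40 in glucose-only, 12.5, 13.7 and 4.75 in glutamine-only, and 7.78, 7.13 and 9.57 in full medium. The exact permutation p over the 4 media was 0.617, on log2 ratios with 1 added to both counts, which weighs more at the low counts of ETFB. ETFB shares 337 exon bases, 5.2% of its own, with AC008750.8 on the same strand, and 12% of the exon bases of CPT2 overlap genes on the opposite strand, of which the antisense AL606760.2 takes 11%. The kit keeps strand, but the strand setting of the counting is not given in the sources used here.

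**Figure D3:**
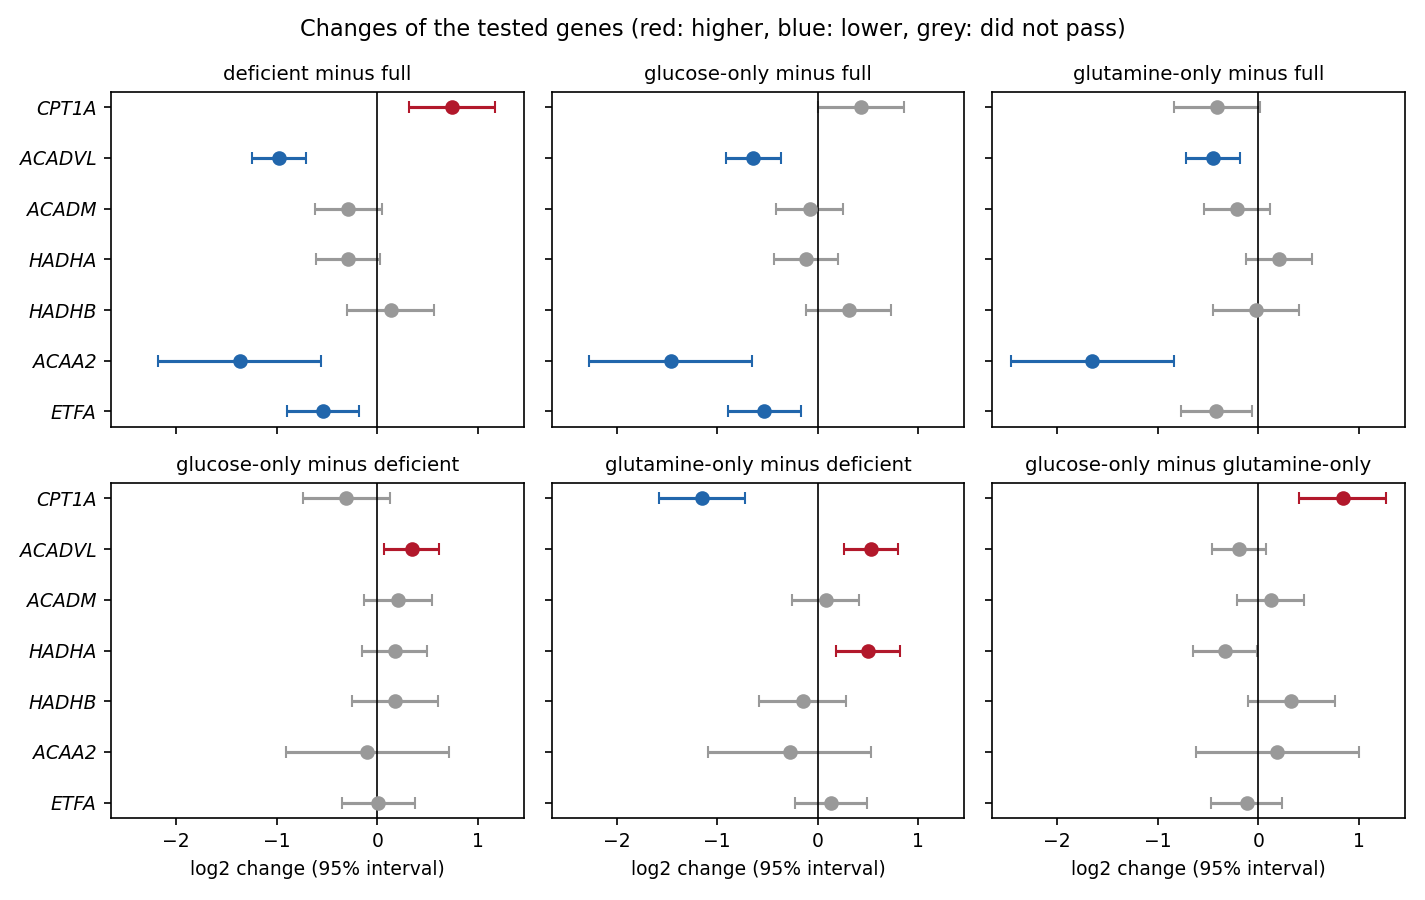
Log2 change of the 7 tested genes in the 6 comparisons between media (horizontal axes, points with 95% intervals), coloured by the call at adjusted p under 0.05. CPT1A lies to the right in deficient against full medium at 0.74 (0.35 and not called with equal library totals) and to the left in glutamine-only against deficient medium at -1.15, and ACADVL and ACAA2 lie to the left in all 3 comparisons against full medium.

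The single withdrawals moved fewer genes. In glucose-only against full medium, that is without glutamine, ACADVL, ACAA2 and ETFA were lower and 0 were higher, 3 of 7, against 22.9% of all tested genes called (9.44% higher and 13.5% lower). In glutamine-only against full medium, that is without glucose, ACADVL and ACAA2 were lower and 0 were higher, 2 of 7, against 22.5% (10.8% higher and 11.6% lower). The medians of the 7 were -0.12 and -0.41, beside -0.03 and -0.01 over all tested genes. All 3 comparisons against full medium share its libraries, so the fall of ACADVL and ACAA2 in each rests in part on the same 3 values.

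Starting from deficient medium, glucose-only cells were higher in 1 of 7 genes (ACADVL), against 43.2% of all tested genes called (20.1% higher and 23.2% lower). Glutamine-only cells were higher in ACADVL and HADHA and lower in CPT1A, 3 of 7, against 41.5% (19.9% higher and 21.6% lower). The medians were 0.17 and 0.08, beside medians over all tested genes within 0.01 of 0. Glucose-only against glutamine-only medium differed in CPT1A alone, 1 of 7, against 13.3% called (5.05% higher and 8.26% lower). The share called was below the background in glucose-only against deficient medium and near it in the other 2 comparisons.

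Whether the effect of a nutrient depends on the other was read from the interaction, which takes the levels in full and deficient medium together and subtracts those in glucose-only and glutamine-only medium. It was called for ACAA2 alone, at 1.75 ± 0.56 (adjusted p = 0.0207), 1 of 7 genes, against 26.5% of all tested genes (15.5% higher and 11% lower). By means, ACAA2 stood at 10.3 ± 0.612 in deficient, 12.3 ± 10.6 in glucose-only, 8.42 ± 1.83 in glutamine-only and 28.2 ± 1.78 in full medium (SD, n = 3 each), and glucose-only library A, at 24.1, came close to full medium. The call was lost with DESeq2 (1.47, adjusted p = 0.0924), without glucose-only library C (1.13, adjusted p = 0.0802) and without glutamine-only library A (1.57, adjusted p = 0.0548). For CPT1A the interaction was 0.72 ± 0.30 (adjusted p = 0.074), and for the others it lay between -0.38 and 0.40.

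Summed over all 9 genes, which weights ACADVL most, the normalized count was 275 ± 18 in deficient, 311 ± 15.2 in glucose-only, 303 ± 2.34 in glutamine-only and 381 ± 14 in full medium (SD, n = 3 each). Each of the 9 libraries short of a nutrient, at 259 to 324, lay below the 3 full libraries at 365 to 391. Per 1000000 protein-coding reads the sum was 473 ± 34.4 in deficient, 646 ± 31.5 in glucose-only, 585 ± 7.34 in glutamine-only and 739 ± 20.9 in full medium. Per kilobase of the principal transcript, ACADVL had the highest level, with a mean of 41.5 over the 12 libraries. ETFA followed at 18.3, HADHA at 17, HADHB at 15.9 and ACADM at 15.6, and ETFB at 5.88, CPT1A at 5.52, ACAA2 at 4.43 and CPT2 at 1.67 were the lowest. On this scale of levels CPT1A stood at 7.77 in deficient and 4.58 in full medium, and ACAA2 at 3.08 in deficient and 8.42 in full medium.

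The pathway around these 9 genes was read from 6 lists with 113 other genes, 72 of them tested. Beside the counts that follow stand 51.8% of all tested genes called in deficient (26.3% higher and 25.5% lower), 22.9% in glucose-only and 22.5% in glutamine-only medium, each against full medium. Of 10 tested genes for activation, uptake and the carnitine shuttle, 0 rose and 3 fell in deficient, 0 rose and 3 fell in glucose-only, and 1 rose and 0 fell in glutamine-only, each against full medium. In deficient medium the count was 0 and 6 with equal totals and 0 and 1 with quantile normalization. ACSL3, which activates long-chain fatty acids, had 111, 93.0 and 89.3 in deficient, 57.8, 58.7 and 64.7 in glucose-only, 121, 140 and 144 in glutamine-only, and 146, 133 and 137 in full medium. It was lowest in glucose-only medium, with no overlap, and fell there by 1.19 ± 0.12 against full medium (adjusted p = 1.21e-08). ACSL1, another activating enzyme, rose in glutamine-only against full medium by 0.78 ± 0.18 (adjusted p = 0.00133), at 62.2, 69.3 and 78.3 against 41.7, 35.7 and 43.1.

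Of 19 other mitochondrial enzymes tested, 0 rose and 3 fell in deficient, 1 rose and 0 fell in glucose-only, and 1 rose and 0 fell in glutamine-only medium against full medium, with medians of -0.16, -0.05 and 0.06. With equal totals the counts were 0 and 9 in deficient, 0 and 3 in glucose-only and 0 and 0 in glutamine-only medium. With the deposited scaling the deficient count of 3 of 19 lies below the 51.8% of all tested genes called. Counts were low for many of these enzymes, and whether this lowered the number called was not tested. HADH, the dehydrogenase of short chains, fell by 1.08 ± 0.26 in deficient medium (adjusted p = 0.000983), with 9.11, 13.3 and 16.3 in deficient and 25.8, 32.0 and 25.7 in full medium. ACSF2 fell by 1.40 ± 0.34 (adjusted p = 0.00121) and ACAD9, a dehydrogenase also needed to assemble complex I, by 0.85 ± 0.28 (adjusted p = 0.0117). ECHS1, the short-chain hydratase, and ETFDH, which passes electrons from ETFA and ETFB to ubiquinone, were not called in any comparison against full medium, but with equal totals ECHS1 was lower in deficient (-0.51, adjusted p = 0.0249) and in glucose-only medium (-0.62, adjusted p = 0.0146).

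Peroxisomal enzymes shorten very long and branched chains. Of 11 tested, 0 rose and 5 fell in deficient against full medium (0 and 7 with equal totals), a share called near the 51.8% of all tested genes. All 5 calls were lower, beside 26.3% higher and 25.5% lower over all tested genes, and whether so few calls differ from genes at large in direction was not tested. The median was -0.42, beside 0.01 over all tested genes. In glucose-only 1 rose and 2 fell (0 and 4 with equal totals), and in glutamine-only 2 rose and 1 fell (1 and 2 with equal totals). CAT, the catalase that removes the hydrogen peroxide of peroxisomal oxidation, had 10.4, 12.1 and 14 in deficient, 25.3, 19.9 and 16.5 in glucose-only, 29.8, 32.7 and 36.4 in glutamine-only, and 56.9, 51.7 and 67.0 in full medium. These groups did not overlap, in the same order as the means of ACADVL, and CAT fell by 2.18 ± 0.22 in deficient medium (adjusted p = 1.56e-09). SCP2, a sterol carrier and thiolase, fell by 1.13 ± 0.14 in deficient (adjusted p = 1.40e-07) and by 0.98 ± 0.14 in glucose-only medium (adjusted p = 7.79e-06). HSD17B4, the peroxisomal bifunctional enzyme, fell by 0.39 ± 0.14 in deficient (adjusted p = 0.0214) and rose by 0.47 ± 0.14 in glutamine-only medium (adjusted p = 0.0153, and 0.152 with equal totals).

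Of 16 tested regulators of the pathway, 7 rose and 3 fell in deficient against full medium, but 4 rose and 4 fell with equal totals, where the median was 0.05 instead of 0.43. Over all tested genes 26.3% were higher and 25.5% lower in that comparison. In glucose-only 3 rose and 1 fell (0 and 1 with equal totals), and in glutamine-only 1 rose and 1 fell (0 and 1 with equal totals). SIRT1, a deacetylase that acts on PPAR coactivators, had 115, 97.8 and 96.3 in deficient, 25.3, 30.4 and 23.5 in glucose-only, 17.1, 27.0 and 33.6 in glutamine-only, and 23.1, 23.5 and 23.9 in full medium. Deficient medium stood alone, with a rise of 2.08 ± 0.20 against full medium (adjusted p = 1.03e-09). PPARA, the nuclear receptor that drives fatty acid oxidation genes in liver, rose by 1.04 ± 0.26 (adjusted p = 0.00127), at 36.4, 26.6 and 35.7 in deficient against 16.5, 16 and 13.8 in full medium. PPRC1, a PGC-1 family coactivator, rose by 1.52 ± 0.15 (adjusted p = 1.99e-09). ACACB, the acetyl-CoA carboxylase whose malonyl-CoA inhibits CPT1, fell by 1.87 ± 0.42 (adjusted p = 0.000467), on normalized counts of 2.60, 1.21 and 2.33 in deficient and 9.26, 10.3 and 10.1 in full medium. ACACB reached 10 only in glutamine-only library B and full libraries B and C, so it entered the test through media where it was higher. PPARGC1A, the coactivator PGC-1alpha, was not called in any comparison against full medium.

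Genes on a list of PPAR targets and starvation genes, which also holds PDK1, PDK3 and TXNIP, moved in both directions with the deposited scaling. Of 8 tested, 2 rose and 5 fell in deficient (0 and 6 with equal totals), 1 rose and 4 fell in glucose-only, and 0 rose and 4 fell in glutamine-only against full medium, beside 51.8%, 22.9% and 22.5% of all tested genes called in these comparisons. PDK4, a kinase that inhibits pyruvate dehydrogenase, had 15.6, 14.5 and 18.6 in deficient, 1.20, 2.10 and 2.35 in glucose-only, 1.80, 3.85 and 2.80 in glutamine-only, and 5.95, 7.52 and 10.1 in full medium. It rose in deficient medium by 0.98 ± 0.41 (adjusted p = 0.048, and 0.261 with equal totals) and fell by 1.61 ± 0.41 in glucose-only medium (adjusted p = 0.00498). PDK4 reached 10 only in the deficient libraries and full library C, so it entered the test through the medium where it was high. The sister kinases PDK1 and PDK3 fell in deficient medium by 2.35 ± 0.21 (adjusted p = 1.47e-10) and 2.80 ± 0.22 (adjusted p = 2.04e-11). TXNIP averaged 15.8 in deficient, 185 in glucose-only, 9.36 in glutamine-only and 123 in full medium. PLIN2, a coat protein of lipid droplets, rose by 0.54 ± 0.18 (adjusted p = 0.0148, and 0.584 with equal totals).

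Of 8 tested genes for release of stored fat and for ketone bodies, 3 rose and 3 fell in deficient medium (2 and 4 with equal totals), and 0 rose and 1 fell in each of glucose-only and glutamine-only medium. Over all tested genes 26.3% were higher and 25.5% lower in deficient against full medium. ABHD5, the activator of the triglyceride lipase, had 67.7, 91.8 and 100 in deficient medium, against 21.2, 32.9 and 31.2 in full medium, a rise of 1.58 ± 0.21 (adjusted p = 4.58e-07). MGLL, which splits monoglycerides, rose by 1.29 ± 0.32 (adjusted p = 0.00128). LIPA, the acid lipase of lysosomes, fell by 1.60 ± 0.30 in deficient medium (adjusted p = 5.41e-05), and OXCT1, which burns ketone bodies, fell by 1.16 ± 0.39 (adjusted p = 0.0148). Normalized counts of OXCT1 were 5.21, 2.41 and 9.32 in deficient and 15.9, 9.4 and 12.8 in full medium. OXCT1 reached the count required for testing only in glucose-only library C and full libraries A and C. It therefore entered the test through media where it was higher. A low level in this table need not be a silent gene: ACACA and PRKAG1, which most growing cells use, averaged at most 4.84 and 1.87 in any medium.

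**Figure D4:**
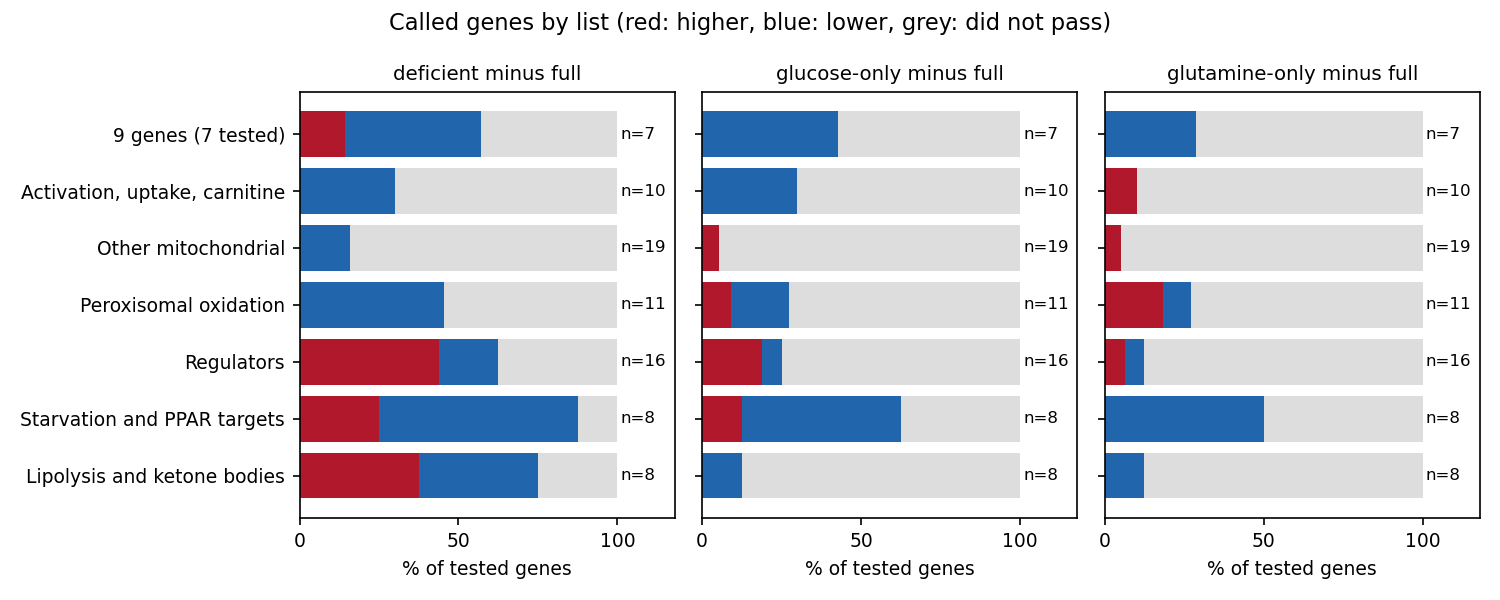
Share of tested genes (horizontal axes, percent) called higher or lower in deficient, glucose-only and glutamine-only medium, each against full medium, for the 7 tested genes of the set and for 6 lists around them. In deficient medium regulators have 7 higher and 3 lower of 16 (4 and 4 with equal totals), and peroxisomal genes have 0 higher and 5 lower of 11, beside 26.3% higher and 25.5% lower over all tested genes.

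For the 4 genes of the set with the widest range of medium means, the genes with the most similar profile were sought by Pearson r of log2 values over the 12 libraries, among 2737 tested genes with a mean of at least 50. These r values describe the same libraries and carry no test. CPT1A was closest to PTBP1 (r = 0.95), which averaged 196, 152, 114 and 136 in deficient, glucose-only, glutamine-only and full medium, then PTPRF and TACC1 (both r = 0.90). ACADVL was closest to FAT4 and PDGFC (both r = 0.96) and NAV1 (r = 0.95), all of which, like ACADVL, were lowest in deficient and highest in full medium. ACAA2 was closest to GRSF1 (r = 0.96), RAD21 (r = 0.88) and KHDRBS1 (r = 0.87), and CPT2 to UACA (r = 0.91), KIAA1671 (r = 0.90) and UNC13D (r = 0.87). GRSF1 averaged 93.0, 90.4, 90.5 and 107 in deficient, glucose-only, glutamine-only and full medium, a far narrower range than that of ACAA2. The r values compare the shape of profiles and not the size of changes, and those of CPT2 rest on few reads.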

How the data were processed

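RNA of 12 MDA-MB-231 libraries, 3 per medium, was measured by sequencing. The deposited signal is a normalized count: reads per gene divided by a size factor per library, made by the authors. Per the submitters' processing notes FastQC, HISAT2, Subread and DESeq2 were used with build GRCh38.p14, and versions, annotation release and strand setting are not given in the sources used here. All values were whole multiples of 1 step per library within 0.01 reads, so reads were recovered, 875033 to 1473587 per library. Of 32493 genes with a read, 9270 reached a normalized count of 10 in 3 or more libraries. These were tested on log2(normalized count + 1), a pseudocount of 1, with limma 3.58.1 (trend) in R 4.3.3, in 1 model of the 4 media and two-sided p-values adjusted by the method of Benjamini and Hochberg, called under 0.05. The fit was tested on simulated data. Subunit ratios were tested by exact permutation on log2 ratios with 1 added to both normalized counts. Alternatives left out each library, used a replicate block, only the media compared or adjusted p under 0.01, took pseudocounts of 0.5 or 8, dropped the filter or asked for a mean of 100 or more, and scaled by quantiles or to equal totals. Others were edgeR 4.0.16 and DESeq2 1.42.0 on recovered reads. Equal protein-coding totals were added after seeing the data. Named genes are the 9, up to 4 per list with the largest called change against full medium, and fixed anchors. The genes, lists and tests were chosen with earlier results of these data known. Intervals on levels per library were not computed, and small read numbers limit CPT2, ETFB and ACAA2. Gene positions and promoter sequences are from RefSeq GRCh38.p14, and exon overlaps and transcript lengths from GENCODE release 29.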

Additional observations from a re-analysis of the deposited data

Results flagged for a closer look

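The interaction of glucose and glutamine was called for ACAA2, at 1.75 ± 0.56 on the log2 scale (adjusted p = 0.0207 in limma), which is a test that the effect of 1 nutrient differs with the other. ACAA2 averaged 10.3 ± 0.612 in deficient, 12.3 ± 10.6 in glucose-only, 8.42 ± 1.83 in glutamine-only and 28.2 ± 1.78 in full medium (SD, n = 3 each), from 30, 32, 27 and 103 reads. Glucose-only library C had 3 reads of the gene, and without it the estimate was 1.13 (adjusted p = 0.0802). It was 1.57 without glutamine-only library A (0.0548) and 1.47 with DESeq2 (0.0924).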

How the results depend on the processing

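Of 15 calls among the 49 pairs of gene and comparison, 6 were kept under every alternative run and 0 changed direction. These 6 were ACADVL in deficient and glucose-only against full and in glutamine-only against deficient medium, ACAA2 in deficient and glutamine-only against full medium, and CPT1A in glutamine-only against deficient medium. The cause of the changes below was not tested, except that fewer genes were tested under a mean of at least 100. There the number of genes called was 903 for deficient, 615 for glucose-only and 624 for glutamine-only against full, 486 for glucose-only against glutamine-only, 776 for glucose-only and 777 for glutamine-only against deficient medium, and 632 for the interaction, and none of the 9 genes was tested. At adjusted p under 0.01 it was 1245 for glucose-only and 1276 for glutamine-only against full, 656 for glucose-only against glutamine-only medium and 1496 for the interaction, against 2124, 2083, 1234 and 2458 at 0.05. DESeq2 called 1255 for glucose-only against full, 604 for glucose-only against glutamine-only medium and 1495 for the interaction.

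Of the 7 tested genes, glutamine-only against full medium called 1 with no filter, DESeq2 or adjusted p under 0.01 (1 to 2 with a library left out). Glucose-only against glutamine-only medium called 0 with DESeq2. Glucose-only against deficient medium called 0 with only the media compared, DESeq2 or adjusted p under 0.01, and 3 with equal protein-coding totals (0 to 1 with a library left out). The interaction called 0 with DESeq2 or adjusted p under 0.01, and 2 with equal protein-coding totals (0 to 2 with a library left out). The exact permutation p for HADHA over HADHB lay between 0.0435 and 0.125 with a library left out, lowest without glucose-only library C. The summed level of the 9 genes in deficient against full medium was -0.47 on the log2 scale, -0.87 with equal totals and -0.64 with equal protein-coding totals.

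Signs turned only in values that no test called. In the main fit these lay within 0.19 of 0, but some alternatives moved further from 0, ACAA2 most of all. HADHB in deficient against full medium was -0.26 with equal totals and -0.04 with equal protein-coding totals. In glutamine-only against full medium HADHB was 0.00 with quantile normalization, 0.04 with edgeR and 0.04 with DESeq2 (-0.17 to 0.24 with a library left out), and against deficient medium 0.12 with equal totals and 0.01 with equal protein-coding totals (-0.30 to 0.11). In glucose-only against full medium ACADM was 0.01 with equal protein-coding totals (-0.16 to 0.01 with a library left out) and HADHA was -0.27 to 0.00. ACAA2 in glucose-only against deficient medium was 0.02 with a pseudocount of 8, 0.08 with equal totals, 0.15 with equal protein-coding totals, 0.24 with edgeR and 0.26 with DESeq2 (-0.72 to 0.52 with a library left out), and against glutamine-only medium -0.44 to 0.80. ETFA in glucose-only medium was -0.11 to 0.15 against deficient and -0.23 to 0.02 against glutamine-only medium with a library left out. The interaction was -0.15 for ACADVL with quantile normalization and with equal protein-coding totals (-0.02 to 0.24 with a library left out), and for ACADM -0.05 with equal totals, -0.15 with quantile normalization, -0.25 with equal protein-coding totals, and -0.03 with edgeR and with DESeq2 (-0.09 to 0.08).

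Whether the replicate letters pair the libraries was not settled. Over 18 pairs with the same letter the correlation of deviations was -0.029 to 0.067 (median 0.01), and over 36 other pairs -0.073 to 0.039 (median -0.005). Between the C libraries of deficient, glutamine-only and full medium it was 0.061, 0.067 and 0.065. With glucose-only library C these gave -0.029, -0.006 and -0.022. Noise from small read numbers lowers such correlations, so small values cannot exclude pairing. With a replicate block the 7 genes kept the same number of calls in each comparison, 4 in deficient against full medium, where 4863 of all genes were called instead of 4804.

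Equal totals moved the median of all tested genes furthest in deficient against full medium, from 0.01 to -0.37. Small read numbers limit CPT2 and ETFB, which were not tested, and ACAA2, with as few as 3 reads in a library. Why these numbers are small was not tested.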

Other observations

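ACAD10, a dehydrogenase outside the 9 genes, was higher against full medium both in glucose-only (0.87 ± 0.31 on the log2 scale, adjusted p = 0.0421 in limma) and in glutamine-only medium (0.92 ± 0.31, adjusted p = 0.0308), and neither call held with equal totals (0.112 and 0.0575). HACL1, which splits 2-hydroxy fatty acids in the peroxisome, had 15.7, 12.6 and 16.5 in glucose-only and 21.6, 15.4 and 16.8 in glutamine-only medium, above 11.2, 3.76 and 8.26 in full medium, with changes of 0.96 ± 0.33 (adjusted p = 0.0375, and 0.0927 with equal totals) and 1.20 ± 0.33 (adjusted p = 0.00886). LIPA, the acid lipase, had 9.64, 10.5 and 7.05 in glucose-only against 28.0, 20.2 and 24.2 in glutamine-only medium, a change of -1.33 ± 0.30 (adjusted p = 0.00253). PPARGC1A had 3.61, 4.19 and 10.6 in glucose-only against 12.6, 14.4 and 25.2 in glutamine-only medium, a change of -1.44 ± 0.37 (adjusted p = 0.00864).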
